A study of Rattus norvegicus with 18 samples.

Results

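In the lungs of rats given repeated instillations of a carbon nanotube, Il1rn and Il1r2, whose products restrain interleukin-1, rose at every year examined, and Il1a and Il1b, the genes of interleukin-1 itself, passed the test at none. Il1rn encodes the interleukin-1 receptor antagonist and exceeded its control level 5.16-fold at Year 0.5 and 7.87-fold at Year 2, with 6.16-fold in between. The decoy receptor gene Il1r2 rose 3.14- to 3.68-fold and the cytokine gene Il18 2.15- to 2.26-fold, while the log2 fold changes of Il1a and Il1b lay between -0.22 and 0.37. They belong to 10 genes of the inflammasome and the interleukin-1 (IL-1) family described here, the sensor Nlrp3, the adaptor Pycard, the caspases Casp1 and Casp4, the pore-forming Gsdmd, the cytokines Il1a, Il1b and Il18, and the inhibitors Il1rn and Il1r2. Members were taken by their symbols, and all 10 were found among the 22081 genes of the deposited tables.

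Male F344 rats received a multiwalled carbon nanotube (MWCNT), MWNT-7, by intratracheal instillation at 0.5 mg/kg body weight once every 4 weeks from 9 weeks of age, or the vehicle alone (saline with Tween 80). Lungs were taken at Year 0.5, 1 and 2, with 3 control and 3 MWCNT rats each time, which makes 6 groups and 18 rats, and bulk RNA from accessory lobe pieces without gross or microscopic tumor was sequenced. Age, number of instillations and time since the first one increased together, so they cannot be told apart. Total counts were 13297643 to 17868851 in control rats and 14661589 to 21130757 in MWCNT rats, and no pair of libraries held identical counts. Marker genes fitted the labelled tissue, with summed levels of the 5 alveolar type 2 markers of 26937 to 59464 TPM (a level per transcript length and library size).

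An inflammasome is an assembly in which a sensor such as NLRP3 recruits the adaptor ASC (encoded by Pycard) and procaspase-1. Caspase-1 then cuts the precursors of IL-1 beta and IL-18 into their active forms and cuts gasdermin D, whose fragment opens pores in the cell membrane; the caspase encoded by Casp4 in rats senses cytosolic lipopolysaccharide and also cuts gasdermin D. Long rigid fibers are a known trigger of NLRP3 in macrophages. IL-1 alpha and IL-1 beta signal through the receptor IL1R1, which the antagonist IL1RN occupies without signalling, and IL1R2 binds IL-1 but lacks a signalling domain. These steps act on proteins, and RNA levels do not measure cleavage or secretion.

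Values by rat are counts scaled to library size (CPM), adjusted between libraries by the trimmed mean of M-values (TMM). Genes were compared within each year with edgeR's quasi-likelihood test over all genes, and passing means a false discovery rate (FDR, Benjamini-Hochberg) under 0.05. At Year 0.5, 6 of 10 members passed and all 6 were higher in MWCNT rats, where 38.8% of all tested genes passed and 20.2% were higher. At Year 1, 6 of 10 passed, again all higher, against 41.2% of all genes in either direction and 21.6% higher. At Year 2, 8 of 10 passed, against 49.2% of all genes; 7 were higher and 1 lower, against 25.2% and 24%. The median log2 fold change of the members was 0.53, 0.62 and 0.54 at the 3 years, and that of all tested genes was -0.02, 0.00 and -0.01. On the log2(TPM + 0.1) scale the median over all tested genes was lower, at -0.16, -0.23 and -0.22. A change beyond 1 on the log2 scale together with an FDR under 0.05, the study's rule for a differentially expressed gene (DEG), was met each year by Il18, Il1rn and Il1r2, all higher, against 6.07%, 6.13% and 8.17% of all genes.

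**Figure D1:**
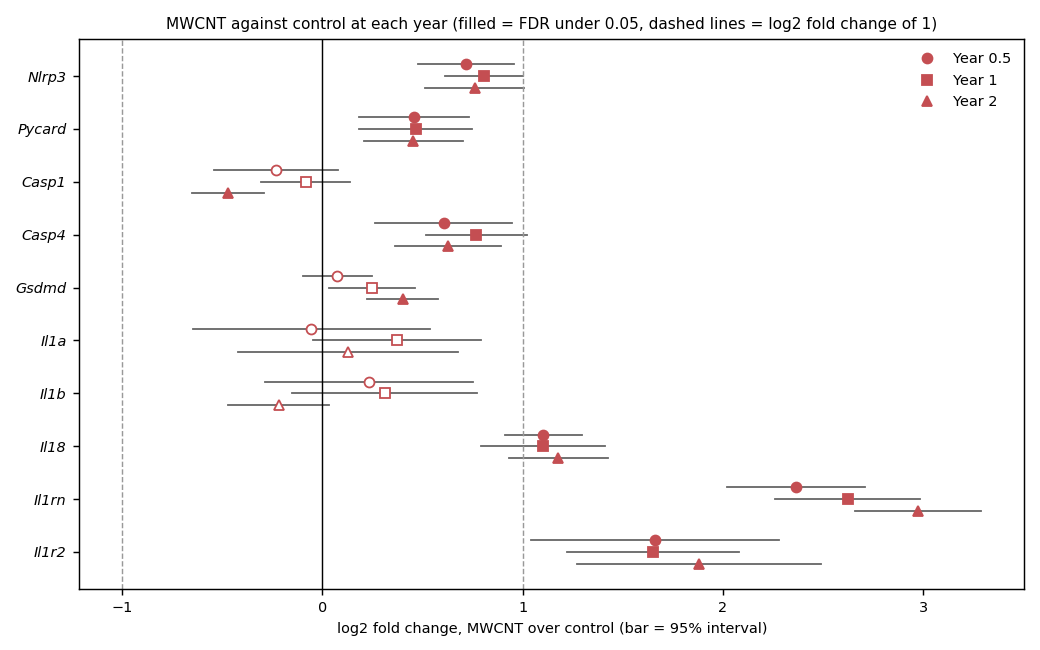
Log2 fold change of each member, MWCNT over control (x axis), at Year 0.5 (circles), Year 1 (squares) and Year 2 (triangles), with 95% intervals from edgeR as bars; filled symbols passed an FDR of 0.05 and dashed lines stand at a log2 fold change of 1 in each direction. The 3 values of Il1rn, from 2.37 to 2.98, lie farthest right, and the intervals of Il1a and Il1b cross 0 at every year.

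Nlrp3 and Pycard encode the sensor and the adaptor. Nlrp3 measured 14.2, 16.3 and 16.8 CPM in the 3 control rats of Year 0.5 and 23.7, 28.4 and 25.5 CPM in the MWCNT rats. At Year 1 the control rats had 16.7, 15.6 and 16.8 CPM and the MWCNT rats 29.5, 28.3 and 27.7 CPM, and at Year 2 the values were 15.8, 17.2 and 17.2 CPM against 32.1, 25.5 and 27.7 CPM. Every MWCNT rat lay above every control rat, including those of other years. On the log2 scale Nlrp3 was higher by 0.72 ± 0.11 (SE), 0.81 ± 0.09 and 0.76 ± 0.11, with an FDR of 0.00091, 0.00016 and 0.00043, which corresponds to 1.64- to 1.75-fold. Nlrp3 kept its call without any single rat and under every alternative run.

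Pycard changed less, and it differed between years as well as between treatments. Its control values were 13.9, 18.9 and 16.7 CPM at Year 0.5, 20.1, 16.2 and 18.9 at Year 1, and 25.6, 24.3 and 20.1 at Year 2. In MWCNT rats they were 22.1, 23.9 and 21.7 CPM, then 22.9, 28.8 and 24.0, then 33.8, 29.5 and 33.2. Within each year the groups did not overlap, but MWCNT rats of Year 0.5 lay within the range of control rats of Year 2. Pycard was higher by 0.46 ± 0.12, 0.47 ± 0.12 and 0.45 ± 0.11 on the log2 scale (FDR 0.0163, 0.0160 and 0.0079). The calls at Year 0.5 and Year 1 depended on single rats. At Year 0.5 the FDR became 0.0514 without control rat 1 and 0.0606 without MWCNT rat 2, and at Year 1 it became 0.0621 without control rat 2. With limma on log2(TPM + 1) the log2 fold change fell to 0.22 at Year 1 (FDR 0.0882) and 0.24 at Year 2 (FDR 0.0551). Across time, Pycard was the 1 member of 10 that passed between Year 0.5 and Year 2 in control rats (log2 fold change 0.50, FDR 0.0263), where 6.65% of all genes passed and 2.65% were higher; the call was lost without control rats 1 or 3 of Year 0.5 (FDR 0.133 and 0.0687) or control rats 1 or 2 of Year 2 (FDR 0.110 and 0.102).

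Casp1, the caspase that matures IL-1 beta and IL-18, was the 1 member that fell. At Year 2 the control rats had 48.2, 49.9 and 52.0 CPM and the MWCNT rats 38.2, 33.4 and 37.0 CPM, without overlap. This was a log2 fold change of -0.47 ± 0.08 (FDR 0.0011), a 1.39-fold lower level. At Year 0.5 the control rats had 49.2, 55.5 and 36.8 CPM against 43.7, 38.1 and 38.9 CPM, and at Year 1 45.4, 46.3 and 47.2 against 39.7, 49.6 and 41.2 CPM, with overlap both times. Their log2 fold changes were -0.23 (95% interval -0.54 to 0.08, FDR 0.214) and -0.08 (-0.31 to 0.14, FDR 0.521). Without control rat 3, the lowest of its group, the Year 0.5 value was -0.38 with an FDR of 0.0140, and limma on log2(TPM + 1) gave -0.32 at Year 1 with an FDR of 0.0114. The difference between the Year 2 and the Year 0.5 effect of Casp1 was -0.23 (-0.59 to 0.12) in the model of all 18 rats and did not pass (FDR 0.577).

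Casp4 lies next to Casp1, at chr8:2635851-2651652 against chr8:2604962-2614631 (Rnor_6.0, both + strand), and went the other way. It measured 12.3, 17.3 and 12.3 CPM in control rats and 21.3, 23.4 and 18.8 in MWCNT rats of Year 0.5. The values were 13.9, 12.9 and 13.5 against 23.5, 24.9 and 19.99 CPM at Year 1 and 12.3, 14.7 and 16.2 against 22.7, 22.3 and 21.96 CPM at Year 2. All 9 MWCNT rats lay above all 9 control rats. Its log2 fold change was 0.61 ± 0.15, 0.77 ± 0.11 and 0.63 ± 0.12 (FDR 0.0124, 0.00082 and 0.0020). At Year 0.5 the FDR of Casp4 was 0.0553 without control rat 1 and 0.0518 without MWCNT rat 2. Of all pairs of members, Nlrp3 and Casp4 had the most similar pattern over the 18 rats, with a root mean square difference of 0.14 between their centred log2 CPM.

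Gsdmd, the executioner that caspases cut, passed at Year 2 alone. The values at that year were 44.2, 41.1 and 41.1 CPM in control rats and 52.9, 54.4 and 60.3 CPM in MWCNT rats, without overlap, and the log2 fold change was 0.40 ± 0.08 (FDR 0.0026). At Year 0.5 control rats had 40.5, 38.5 and 44.5 CPM against 43.0, 44.9 and 42.2, and at Year 1 43.2, 38.5 and 39.5 against 43.2, 47.4 and 52.4 CPM. These ranges overlapped. Their log2 fold changes were 0.07 (95% interval -0.10 to 0.25, FDR 0.469) and 0.25 (0.03 to 0.46, FDR 0.0636). The Year 0.5 value turned to -0.03 with library size as the only scaling and -0.07 on both TPM scales. At Year 1 the FDR was 0.0372 without MWCNT rat 1 and 0.0239 in the model of all 18 rats, and at Year 2 limma on log2(TPM + 1) gave 0.18 with an FDR of 0.0846.

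**Figure D2:**
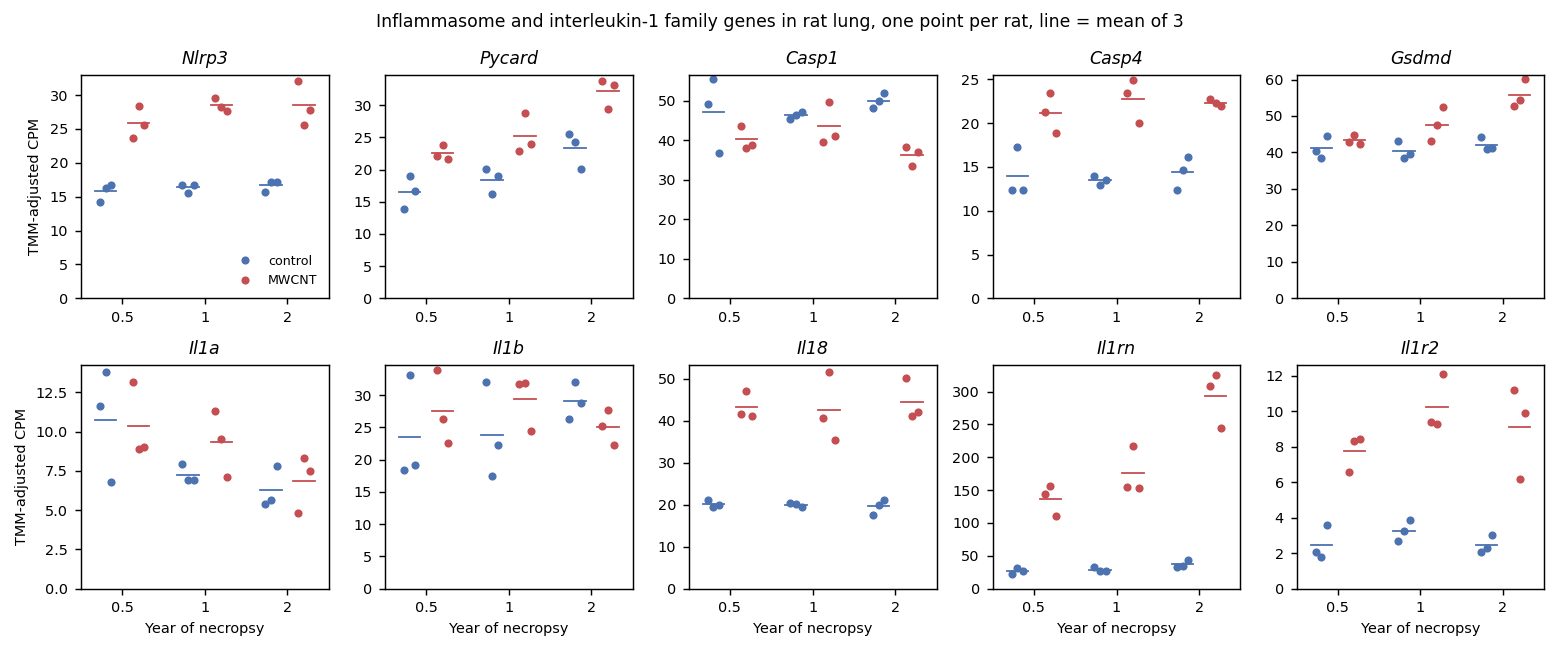
TMM-adjusted CPM (y axis, each panel with its own scale from 0) of each member against the year of necropsy; 1 point is 1 rat, blue for control and red for MWCNT, and the line is the mean of 3 rats. For Nlrp3, Casp4, Il18, Il1rn and Il1r2 every red point lies above every blue point, whereas the points of Il1a and Il1b mix at each year.

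The cytokine genes split. Il18 had 21.2, 19.4 and 19.8 CPM in control rats at Year 0.5, 20.4, 20.1 and 19.3 at Year 1, and 17.6, 19.97 and 21.1 at Year 2. MWCNT rats had 41.6, 47.0 and 41.2 CPM, then 40.7, 51.6 and 35.3, then 50.2, 41.2 and 42.0. The lowest MWCNT rat stood well above the highest control rat. Log2 fold changes of Il18 were 1.10 ± 0.08, 1.10 ± 0.14 and 1.18 ± 0.11 (FDR 3.1e-05, 0.00035 and 3.1e-05), and between Year 0.5 and Year 2 the effect differed by 0.08 (95% interval -0.27 to 0.44). Il18 passed the FDR in every alternative and without any single rat, but its size sits near the DEG bound: the log2 fold change at Year 1 was 0.93 without MWCNT rat 2 and 0.97 with library size only, and limma on log2(TPM + 1) gave 0.94, 0.83 and 0.94.

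Il1b measured 18.4, 33.1 and 19.2 CPM in control rats and 33.9, 26.3 and 22.6 CPM in MWCNT rats of Year 0.5. It measured 32.0, 17.4 and 22.3 against 31.8, 31.9 and 24.4 CPM at Year 1 and 26.3, 32.1 and 28.7 against 25.2, 27.6 and 22.3 CPM at Year 2. The ranges overlapped each time, and 1 control rat at Year 0.5 and 1 at Year 1 had as much Il1b as the MWCNT rats. Il1b had a log2 fold change of 0.23 (95% interval -0.29 to 0.75), 0.31 (-0.15 to 0.77) and -0.22 (-0.47 to 0.03), with an FDR of 0.455, 0.253 and 0.132. Leaving out control rat 2 of Year 0.5 gave 0.55 with an FDR of 0.0374, and leaving out control rat 1 of Year 1 gave 0.57 with an FDR of 0.0256. These were the control rats highest in Il1b at their year, and each fit kept 2 control rats. The outcome of the test at those years thus depended on single rats. At Year 2 the sign was negative in the test, and Il1b passed as lower with library size only (-0.39, FDR 0.0178) and with limma on log2(TPM + 1) (-0.42, FDR 0.0143). The upper limits of the 3 intervals lie below the lower limits of Il1rn, which were 2.02, 2.26 and 2.66.

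Il1a, whose product can act as an alarm signal without cleavage by caspase-1, was scarce and variable. Control rats had 11.6, 13.8 and 6.77 CPM at Year 0.5, 7.91, 6.90 and 6.90 at Year 1, and 5.37, 5.66 and 7.83 at Year 2. MWCNT rats had 13.2, 8.88 and 8.99, then 11.3, 9.55 and 7.08, then 4.79, 8.34 and 7.48 CPM, and the ranges overlapped at each year. For Il1a the log2 fold change was -0.05 (95% interval -0.65 to 0.54), 0.37 (-0.04 to 0.79) and 0.13 (-0.42 to 0.68), with an FDR of 0.887, 0.135 and 0.691. Its sign at Year 0.5 and Year 2 changed with single rats, and at Year 1 it passed without MWCNT rat 3 (0.53, FDR 0.0333). Between Year 0.5 and Year 2, Il1a changed by -0.77 on the log2 scale in control rats (-1.33 to -0.21, FDR 0.0854) and by -0.58 in MWCNT rats (-1.13 to -0.03, FDR 0.158), neither of which passed.

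Il1rn showed the widest separation of the 10 members. Control rats had 22.1, 30.9 and 27.0 CPM at Year 0.5, 33.1, 26.1 and 26.9 at Year 1, and 33.2, 34.5 and 43.4 at Year 2. MWCNT rats had 144, 156 and 111 CPM, then 155, 218 and 154, then 308, 326 and 245. The lowest MWCNT rat of any year, at 111 CPM, lay far above the highest control rat, at 43.4 CPM, and the 3 MWCNT rats of Year 2 exceeded all other rats. Il1rn had a log2 fold change of 2.37 ± 0.15, 2.62 ± 0.16 and 2.98 ± 0.14 (FDR 1.4e-05, 6.9e-06 and 8.6e-07), and it passed in every alternative and without any single rat.

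Il1rn also climbed with time in treated lungs. From Year 0.5 to Year 2 it rose 2.14-fold in MWCNT rats (log2 fold change 1.09 ± 0.16, FDR 0.00035), and 3 of 10 members passed in this comparison, the others being Pycard (0.51, FDR 0.0108) and Gsdmd (0.37, FDR 0.0063), against 13.5% of all genes in either direction and 6.65% higher. The call for Pycard was lost without MWCNT rat 3 of Year 0.5 (FDR 0.0583). In control rats Il1rn was 0.48 higher on the log2 scale (95% interval 0.10 to 0.86), which did not pass (FDR 0.112). The treatment effect on Il1rn was larger at Year 2 than at Year 0.5 by 0.62 ± 0.24 (0.11 to 1.13), with an FDR of 0.252. By edgeR's interaction test 0 of 10 members passed for Year 2 against Year 0.5, where 1.31% of all genes did; 2 had an unadjusted p under 0.05, Gsdmd (0.33, unadjusted p = 0.0102 and FDR 0.186) and Il1rn, and DESeq2 called 0. For Year 1 against Year 0.5 the same test called 0 of 10 members and 0% of all genes, with 0 members at an unadjusted p under 0.05 and 0 by DESeq2.

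Il1r2, the decoy receptor, rests on few reads, 25 to 72 in a control rat and 98 to 183 in an MWCNT rat. It had 2.04, 1.76 and 3.58 CPM in control rats and 6.55, 8.34 and 8.46 CPM in MWCNT rats at Year 0.5. The values were 2.69, 3.23 and 3.85 against 9.39, 9.31 and 12.1 CPM at Year 1 and 2.06, 2.29 and 3.01 against 11.2, 6.17 and 9.90 CPM at Year 2. No MWCNT rat reached down to the control range. Il1r2 rose on the log2 scale by 1.66 ± 0.27, 1.65 ± 0.19 and 1.88 ± 0.27 (FDR 0.0016, 0.00024 and 0.00042), and no alternative removed the call.

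Upstream sequences of the receptor antagonist and of the 3 cytokines are shown because these genes belong to 1 family and behaved differently in these lungs. Each is the 250 bases before the annotated start, read 5′ to 3′ on the gene's strand, from RefSeq on the GRCr8 assembly, whose positions are not those of Rnor_6.0. Of the 10 members, 7 had an entry. Capitals mark matches, on either strand, to a TATA motif (TATAAA), an AP-1 motif (TGANTCA) or a PU.1 motif (GAGGAA), which do not overlap here.
Il1rn (chr3:27520072-27520321, + strand): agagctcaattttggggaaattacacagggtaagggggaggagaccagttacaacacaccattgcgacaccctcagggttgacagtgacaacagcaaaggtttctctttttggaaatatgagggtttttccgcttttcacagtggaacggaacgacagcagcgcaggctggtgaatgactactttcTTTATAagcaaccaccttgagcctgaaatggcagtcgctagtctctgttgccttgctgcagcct
Il1a (chr3:136990018-136990267, - strand): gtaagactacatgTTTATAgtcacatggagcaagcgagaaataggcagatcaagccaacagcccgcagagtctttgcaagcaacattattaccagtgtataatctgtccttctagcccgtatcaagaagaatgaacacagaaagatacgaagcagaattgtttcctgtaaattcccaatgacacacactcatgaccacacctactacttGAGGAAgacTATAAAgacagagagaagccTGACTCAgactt
Il1b (chr3:137036582-137036831, - strand): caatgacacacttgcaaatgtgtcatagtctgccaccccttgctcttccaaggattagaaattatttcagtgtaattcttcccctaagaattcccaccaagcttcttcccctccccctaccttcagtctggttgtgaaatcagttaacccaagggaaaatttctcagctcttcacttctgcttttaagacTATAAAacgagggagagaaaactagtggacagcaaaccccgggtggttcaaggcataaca
Il18 (chr8:59801822-59802071, + strand): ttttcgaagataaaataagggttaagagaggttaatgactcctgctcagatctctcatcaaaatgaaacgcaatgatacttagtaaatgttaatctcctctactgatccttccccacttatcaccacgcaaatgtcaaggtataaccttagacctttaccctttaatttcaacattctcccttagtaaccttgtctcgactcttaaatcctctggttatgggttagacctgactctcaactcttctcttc
Il1rn held 1 TATA match, on the opposite strand and beginning 64 bases before the start. Il1a held TATA matches at 237 bases (opposite strand) and 32 bases, an AP-1 match at 12 bases and a PU.1 match at 41 bases. Il1b held 1 TATA match at 60 bases, and Il18 held no match to the 3 motifs. Among 33469 rat promoters of that length, 12.9% had a TATA match, 6.34% an AP-1 match and 23.3% a PU.1 match. The matches describe letters and name no bound factor.

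Levels per transcript length changed the order of the members. In control rats of Year 2, Casp1 came first at 67.1 ± 4.57 TPM (SD, n = 3), followed by Pycard at 51.6 ± 5.28, Gsdmd at 44.3 ± 0.40, Il1b at 42.8 ± 5.37, Il18 at 39.9 ± 4.81 and Il1rn at 37.4 ± 6.44. Each of the last 4 lay within 1 SD of its neighbour in that order. Casp4 at 24.2 ± 3.97 TPM, Il1a at 10.2 ± 2.40, Nlrp3 at 8.27 ± 0.68 and Il1r2 at 3.51 ± 0.79 followed, with Il1a and Nlrp3 within their spread. In MWCNT rats of Year 2, Il1rn stood first at 252 ± 35.9 TPM, ahead of Il18 at 77.6 ± 6.94 and Pycard at 61.0 ± 3.82. Casp1 had dropped behind 4 other members, at 41.6 ± 2.30 TPM, below Gsdmd at 50.5 ± 4.31, and Il1b at 31.6 ± 3.47 lay within its spread of Casp4 at 32.1 ± 0.33. Nlrp3 at 12.1 ± 1.17, Il1r2 at 11.1 ± 3.04 and Il1a at 9.54 ± 2.73 TPM closed the list without separating.

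Ratios of TPM within a rat set inhibitor against agonist free of library scaling. Control lungs held 0.807 ± 0.161, 0.853 ± 0.160 and 0.878 ± 0.149 TPM of Il1rn per TPM of Il1b at the 3 years (SD, n = 3). MWCNT lungs held 3.44 ± 0.588, 4.10 ± 0.687 and 7.98 ± 0.432, and the highest control rat, at 1.03, lay below the lowest MWCNT rat, at 2.90. The ratio of Il1r2 to the signalling receptor Il1r1 was 0.0918 to 0.117 on average in control groups and 0.238 to 0.312 in MWCNT groups, again without overlap. For Il18bp, whose product binds and neutralizes IL-18, the ratio to Il18 overlapped at Year 0.5 (0.617 ± 0.180 against 0.660 ± 0.132) and had separated at Year 2 (0.727 ± 0.064 against 1.83 ± 0.353). These ratios are descriptions and were given no test.

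**Figure D3:**
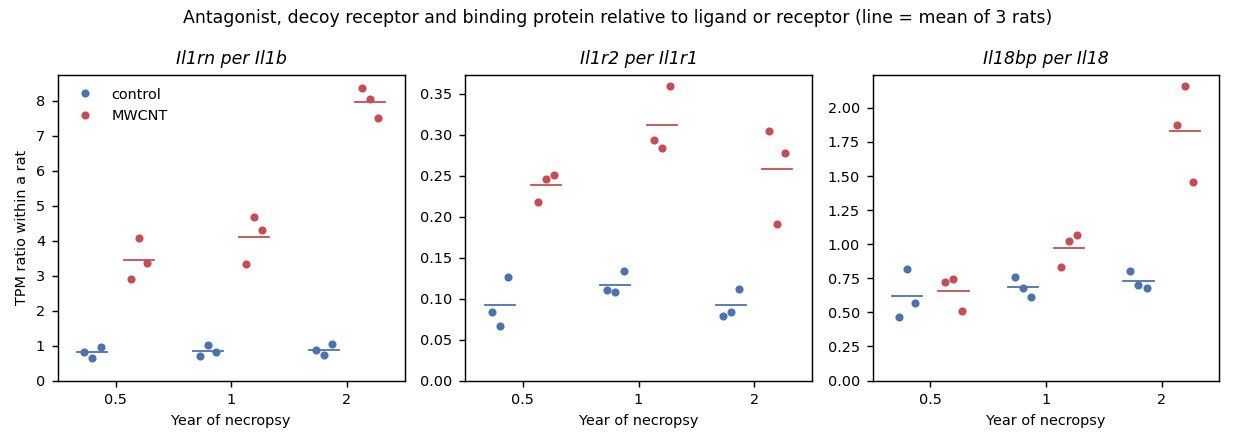
Ratio of TPM values within each rat (y axis, linear, from 0) for Il1rn per Il1b, Il1r2 per Il1r1 and Il18bp per Il18 against the year of necropsy; blue points are control rats, red points MWCNT rats and lines the mean of 3. The Il1rn per Il1b ratio of MWCNT rats is about 3.44 at Year 0.5 and 7.98 at Year 2 with control rats near 1, and Il18bp per Il18 separates after Year 0.5.

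Other IL-1 family genes showed losses as well as gains. Il33, an alarmin stored in the nuclei of lung cells, averaged 439 ± 66.8, 384 ± 37.8 and 410.0 ± 18.4 CPM in control groups and fell to 250.5 ± 28.1, 246 ± 21.0 and 170.1 ± 18.6 CPM in MWCNT groups. Its log2 fold change was -0.81, -0.64 and -1.27 (FDR 0.00098, 0.0011 and 7.1e-06). Il36b, at 0.567 to 0.918 CPM in control groups, had log2 fold changes of 1.20, 1.69 and 1.49 (FDR 0.0452, 0.0142 and 0.0026), a call that at Year 0.5 was lost without any rat but MWCNT rat 1, with an FDR of 0.0519 to 0.203, and at Year 1 without control rat 2 (FDR 0.0545) or MWCNT rat 2 (FDR 0.0583). The other 4 of the 6 ligand genes listed, Il36a, Il36g, Il36rn and Il1f10, had too few counts to be tested.

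Among 10 receptor and binding protein genes, 8 were tested; 4 rose at each year, and 1, 1 and 2 fell, beside the 38.8%, 41.2% and 49.2% of all genes that passed in either direction. Il18bp had 9.15, 14.7 and 10.4 CPM in control rats and 27.9, 32.6 and 19.4 CPM in MWCNT rats at Year 0.5, 14.4, 12.6 and 11.02 against 31.4, 49.1 and 35.0 at Year 1, and 13.1, 13.0 and 13.3 against 87.1, 82.5 and 56.8 at Year 2. No MWCNT rat fell into the control range. The log2 fold change was 1.23 ± 0.22, 1.62 ± 0.18 and 2.52 ± 0.16 (FDR 0.0024, 0.00019 and 3.8e-06). Il1rl1, the receptor for IL-33, rose on the log2 scale by 0.75, 1.16 and 1.97 (FDR 0.0310, 0.0028 and 6.6e-05), opposite in sign to its ligand; the Year 0.5 call was lost on both TPM scales and without 4 of the 6 rats, with an FDR of 0.0554 to 0.116. The signalling chain Il1r1 rose on the log2 scale by 0.30, 0.25 and 0.38 and its partner Il1rap by 0.37, 0.31 and 0.76. On the TPM scale their group means at Year 1 were close, 40.3 ± 5.06 in control and 40.7 ± 2.10 in MWCNT rats for Il1r1 and 9.26 ± 0.880 and 9.72 ± 0.704 for Il1rap (SD, n = 3), with overlapping rats. Sigirr, a negative regulator of the family, fell by 0.45 at Year 0.5 and 0.39 at Year 2 on the log2 scale. The receptor gene Il18rap averaged 22.8 ± 3.87 CPM in control and 12.3 ± 3.44 CPM in MWCNT rats at Year 2, without overlap. Its groups overlapped at Year 0.5 and Year 1, and those of the receptor gene Il18r1 overlapped at every year.

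In the list of other inflammasome sensors, 6 of 9 symbols were found, of which 2, 1 and 2 passed, all higher, against 38.8%, 41.2% and 49.2% of all genes in either direction. Nlrc4, which assembles when NAIP proteins bind flagellin or bacterial needle proteins, rose by 0.92, 0.41 and 0.87 on the log2 scale (FDR 0.0031, 0.0164 and 0.0014). Nlrp10, at 0.868 to 1.19 CPM in control groups, had log2 fold changes of 1.00, 1.05 and 1.30 (FDR 0.0386, 0.0510 and 0.0164), and its Year 0.5 call was lost in DESeq2 (FDR 0.0606) and without any rat but MWCNT rat 3, with an FDR of 0.0564 to 0.136; at Year 1 it passed without control rat 1 (FDR 0.0425), and at Year 2 it was lost without MWCNT rat 3 (FDR 0.0525). Nlrp1a, Nlrp12, Aim2 and Mefv passed at none of the 3 years.

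Of 13 genes for priming and regulation, 12 were found, of which 5, 4 and 6 rose and 2 fell at each year. These counts stand against 38.8%, 41.2% and 49.2% of all genes in either direction and 20.2%, 21.6% and 25.2% higher. Ctsb, a lysosomal protease linked to NLRP3 activation when lysosomes rupture, averaged 794 ± 34.8, 811 ± 15.2 and 775 ± 67.2 CPM in control groups and 2119 ± 218, 2548 ± 293 and 3121 ± 242 CPM in MWCNT groups. Its log2 fold change was 1.42, 1.66 and 2.00 (FDR 1.1e-05, 6.9e-06 and 1.1e-06). Card9, an adaptor of pattern receptors in myeloid cells, had log2 fold changes of 1.46, 1.38 and 1.16, and Serpinb1a, a protease inhibitor, by 0.93, 1.25 and 1.36. Ninj1, which ruptures the membrane of dying cells, rose by 0.67, 0.81 and 0.67 on the log2 scale. Gbp5, an interferon-inducible GTPase that promotes NLRP3 assembly, fell by 0.73, 0.37 and 1.29 on the log2 scale (FDR 0.0162, 0.0263 and 2.2e-05); its call was lost at Year 0.5 without MWCNT rats 2 or 3 (FDR 0.0663 and 0.0620) and at Year 1 without control rats 1 or 2 or MWCNT rat 3 (FDR 0.0787 to 0.0823) and in the model of all 18 rats (FDR 0.0764). Gsdme passed at Year 2 (log2 fold change 1.06, FDR 0.0492), but not in DESeq2 (FDR 0.0909) nor without any rat but MWCNT rat 2, with an FDR of 0.0608 to 0.153.

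**Figure D4:**
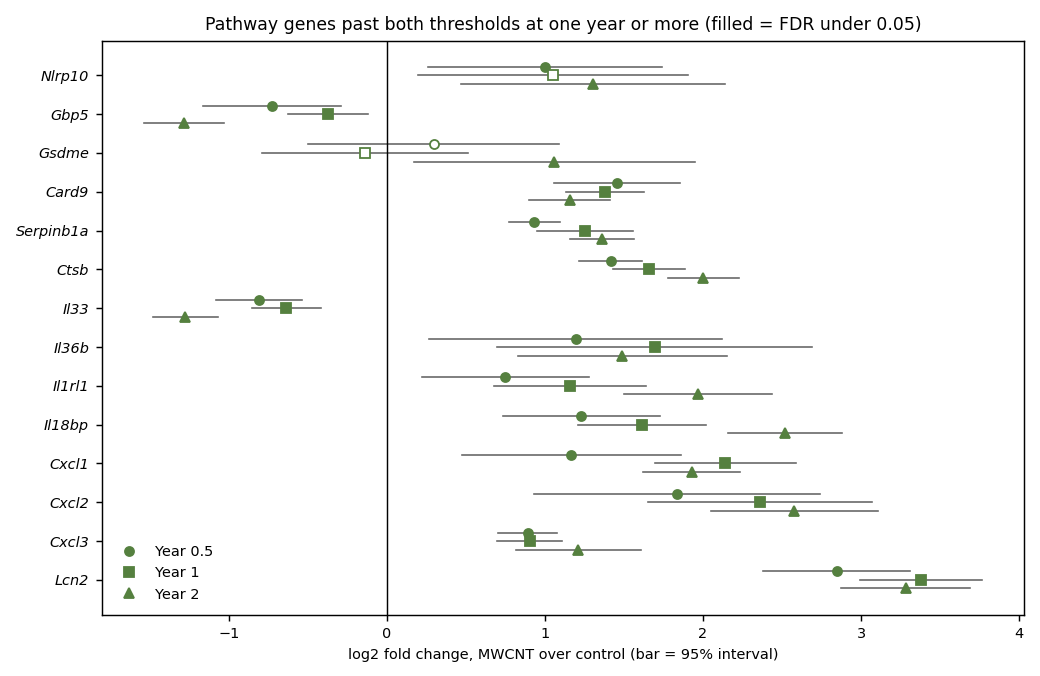
Log2 fold change, MWCNT over control (x axis), of the 14 pathway genes outside the 10 members that met the DEG rule at 1 year or more, with 95% intervals; circles are Year 0.5, squares Year 1 and triangles Year 2, and filled symbols passed an FDR of 0.05. Lcn2, Cxcl2, Il18bp and Ctsb lie to the right at all years, and Gbp5 and Il33 to the left.

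Downstream, 15 of 16 genes of IL-1 receptor signalling were tested, of which 4, 4 and 5 rose and 1 fell each year. Of all tested genes, 38.8%, 41.2% and 49.2% passed in either direction, and 20.2%, 21.6% and 25.2% were higher. Myd88, Irak1, Irak4 and Nfkbiz passed as higher at all 3 years with log2 fold changes of 0.24 to 0.68, Rela passed as lower at -0.27, -0.22 and -0.46, and none met the DEG rule. For Irak1 the groups were not apart on the TPM scale at Year 1, with 64.7 ± 3.67 in control and 64.8 ± 4.74 in MWCNT rats, or at Year 2, with 69.2 ± 8.97 and 70.7 ± 2.56 (SD, n = 3). The TPM values of Irak4 and Nfkbiz also overlapped between the groups at Year 1 and Year 2, and those of Myd88 at no year. Of 10 genes that IL-1 induces in many cells, 8 were tested; 4, 4 and 5 rose and 1, 0 and 1 fell. Cxcl1, Cxcl2 and Cxcl3 encode neutrophil attractants. On the log2 scale Cxcl1 rose by 1.17, 2.14 and 1.93, Cxcl2 by 1.84, 2.36 and 2.58, and Cxcl3 by 0.89, 0.90 and 1.21, each with an FDR under 0.05 at every year. Lcn2, which encodes a siderophore-binding protein of neutrophils and epithelium, rose by 2.85, 3.38 and 3.28 on the log2 scale, from 4.75 to 5.53 CPM in control groups to 39.5 to 53.0 CPM in MWCNT groups. Icam1 fell by 0.26 at Year 0.5 and 0.54 at Year 2 on the log2 scale, and Ptgs2 passed at no year. These genes also answer to other signals, and their relation to IL-1 was not tested.

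Markers of cell types differed between MWCNT and control rats in both directions. For scale, 38.8%, 41.2% and 49.2% of all tested genes passed at the 3 years, and 20.2%, 21.6% and 25.2% were higher. Of 8 macrophage markers, 7, 7 and 8 rose and 1, Cd163, fell at Year 1, and their summed level was 302 to 383 TPM in control rats and 747 to 1082 TPM in MWCNT rats, with no marker at 0 in every rat of a group, though Marco was at 0 in 2 control rats of Year 0.5 and 1 of Year 2; Cd68 rose by 2.44, 2.50 and 3.03 on the log2 scale. Neutrophil markers summed to 215 to 387 TPM in control rats, 371 to 399 TPM in MWCNT rats of Year 0.5 and 650 to 1158 TPM in those of Year 1 and Year 2, with 1, 3 and 3 of 6 tested higher. S100a9 passed as higher at every year and S100a8 and Mmp9 at Year 1 and Year 2, while Csf3r, Cxcr2 and Mmp8 passed at none. The granule gene Elane was at 0 in control rats of Year 0.5, and Mpo in control rats of Year 2 and MWCNT rats of Year 1 and Year 2. All 5 alveolar type 2 markers rose and all 4 endothelial markers fell at each year, and 5, 4 and 5 of 5 alveolar type 1 markers fell. Of 5 T cell markers, 1 rose each year and 3, 1 and 4 fell. The riser was Cd4, with log2 fold changes of 1.17, 1.18 and 1.81. Those of Cd3d, Cd3e, Cd3g and Cd8a were negative at every year, though not all passed. Of 2 airway epithelium markers tested, 1, 2 and 1 fell. In bulk lung, more cells of a type and more RNA per cell cannot be told apart, and the part of these shifts in the members' values was not tested. The genes with the pattern most like that of Il1rn over the 18 rats were C1qa and Lgals3, with a root mean square difference of 0.184 and 0.187 between centred log2 CPM against an SD of 1.42 for Il1rn itself. For Il18 they were Ppt1 (0.0759) and Lcp1 (0.109), against an SD of 0.588, and for Il1r2 they were Emilin2 (0.248) and a row that the tables name Cfb_1 (0.249), against an SD of 0.938, out of 14842 genes compared.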

How the data were processed

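RNA from 18 rat lungs was sequenced, and the authors mapped the reads to the rat genome (Rnor_6.0 per the labels) in CLC Genomics Workbench. The deposited tables hold the authors' raw counts per gene and TPM for each rat, with strand handling and annotation version not given in the sources used here. The authors' fold changes and p-values, and 36 per-sample columns of RPKM and CPM, were not used.

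Counts were tested per year (6 rats) with edgeR 4.0.16 (R 4.3.3) after filterByExpr with a minimum count of 10, which left 14315, 14345 and 14361 genes, and TMM scaling; 1 model of all 18 rats and 14843 genes gave time effects and interactions. Benjamini-Hochberg adjustment covered all genes tested. CPM used TMM factors over all 18 rats, and TPM served for levels between genes, ratios, summed marker levels, group levels of a few listed genes and the limma alternatives. P-values measure the spread between 3 rats per group. The members and gene lists were chosen with earlier results of these data known. Text names all 10 members, pathway genes that met the DEG rule at any year, and the 2 genes nearest to each member that met it every year. Of the cell type markers only some are named, whether or not they met the rule. Listed genes such as Nlrc4, Il1r1, Il18rap, Ninj1, Myd88, Icam1 and Sigirr were added after their values were seen. Alternatives used DESeq2 1.42.0 and limma 3.58.1. Scripts were tested on simulated data. Protein sequences were not used here.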

Additional observations from a re-analysis of the deposited data

Results flagged for a closer look

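For 2 pathway genes outside the 10 members the effect of MWCNT differed between Year 2 and Year 0.5 by the interaction term of the model of all 18 rats (edgeR), where 1.31% of all genes passed. Il18bp rose further at Year 2 by 1.29 ± 0.31 on the log2 scale (95% interval 0.64 to 1.95, FDR 0.0494), just inside the threshold. Ctsb rose further by 0.59 ± 0.13 (0.31 to 0.87, FDR 0.0356). In both genes the mean CPM of control groups stayed level while each MWCNT group averaged more than the one before. Among the cell type markers, Mmp9 (1.90, FDR 0.0290) and Pdpn (-0.48, FDR 0.0140) also passed the interaction test. The interactions of these pathway and marker genes were not refitted by an alternative or without single rats.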

How the results depend on the processing

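Outside the leave-one-out fits, 275 of the recomputed values of the members kept their direction and their side of the threshold, 7 lost and 6 gained a call, and 6 changed sign without being called. Library size as the only scaling moved the median of all genes by -0.10, -0.13 and -0.17 at the 3 years, and small changes moved with it. On the log2(TPM + 0.1) scale the median itself was -0.16, -0.23 and -0.22. Gsdmd at Year 0.5 became -0.030 with library size only, -0.066 with limma and a TPM pseudocount of 1, and -0.067 with one of 0.1, and Il1a at Year 2 became -0.041, -0.10 and -0.11 in that order. The count of members called stayed at 6 at Year 0.5 in all alternatives and was 5 to 7 at Year 1 and 7 to 9 at Year 2. Members meeting the DEG rule numbered 2 to 3, with Il18 the one that dropped under a log2 fold change of 1. The time effect in control rats was called for 2 members by DESeq2 in place of 1; the cause was not tested.

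Without 1 rat, members called were 4 to 7 at Year 0.5, 5 to 7 at Year 1 and 8 at Year 2, and in control rats over time 0 to 1. Il1a then had log2 fold changes of -0.30 to 0.16 (Year 0.5) or -0.036 to 0.33 (Year 2). With the replicate block, 6, 6 and 8 members passed, as without it. Same-numbered rats showed no shared deviation (mean correlation 0.007 over 9 pairs, -0.15 to 0.11, against -0.003 over 18 other pairs). With so few pairs this cannot exclude a pairing of the rats by number. With 3 rats a group, the intervals of Il1a span more than 1 log2 unit at Year 0.5 and Year 2.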
